A study of Homo sapiens with 8 samples.

Results

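The core subunits of the mSWI/SNF chromatin remodeling complexes were examined in ribosome profiling data of G401 cells, a line derived from a rhabdoid tumor of the kidney that lacks SMARCB1. The 10 genes were SMARCB1, the ATPases SMARCA4 and SMARCA2, the scaffold pair SMARCC1 and SMARCC2, SMARCD1, SMARCD2, SMARCD3, SMARCE1 and the actin-related ACTL6A. They were chosen by name, not by a measured value, though with earlier results of these data known, and are 10 of the 20701 genes listed. A gene entered the tests if edgeR's filter on low counts kept it, which left 11097 genes in all and 9 of the 10 subunits, SMARCA2 being the exception.

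The cells carried a doxycycline-inducible (Tet-On) cassette for SMARCB1 or for GFP, the control protein, and received doxycycline (Dox) at 0.1 μg/ml, or DMSO as its vehicle, over 12 h. This gave 4 groups of 2 libraries each, SMARCB1 Dox, SMARCB1 DMSO, GFP Dox and GFP DMSO. All groups share the G401 background and the loss of SMARCB1, plates were pooled for each condition, and the SMARCB1 and GFP cells are separate engineered populations, so a difference between lines cannot be told apart from a difference between those populations. The labels do not say whether the 2 libraries of a group came from separate cultures, so the p-values measure the spread between these libraries, which may be technical.

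The mSWI/SNF complexes use ATP to slide or evict nucleosomes. An ATPase subunit, SMARCA4 or its paralog SMARCA2, is the motor, 2 SMARCC proteins and 1 SMARCD protein form the platform on which the complex is assembled, and SMARCE1 and SMARCB1 join that core. SMARCB1 contacts the nucleosome's acidic patch, and its loss is the defining lesion of rhabdoid tumors.

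Ribosome profiling sequences the pieces of mRNA that ribosomes protect, called footprints. Each library was read as counts of footprints on coding sequences, given here as CPM, in which every count is scaled by its library's total on genes, or as CPM per kilobase of annotated coding sequence where genes are compared with each other. The libraries held 5924443 to 14000039 counts on genes. The rhabdoid cell markers VIM, KRT8 and KRT18 were high in every library (781 to 3170 CPM), whereas PTPRC, ALB and MYOG, markers of leukocytes, hepatocytes and muscle, were at 0 counts, and PECAM1 and DES had at most 3 and 4 counts. GFP Dox replicate 1 stood apart in its alignments. In it the counting tool's tally of alignments that were not unique made up 56.4% of that tally plus the uniquely aligned reads. This was 25.6% to 39.7% in the other 7 libraries. A read with several alignments may enter the tally more than 1 time, so this is no exact share of reads. Where leaving GFP Dox replicate 1 out moved a result, the value without it is given. Footprint counts combine the amount of an mRNA with the number of ribosomes on it, and fewer mRNAs and fewer ribosomes per mRNA cannot be told apart here.

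SMARCB1 lies at chr22:23786931-23838009 (GRCh38, plus strand, ENSG00000099956) with 1468 annotated coding bases in 9 blocks. Its first coding block, chr22:23787170-23787262, is shown because it carries the start codon, in capitals, of the mRNA whose footprints define the induced libraries.
SMARCB1 first coding block: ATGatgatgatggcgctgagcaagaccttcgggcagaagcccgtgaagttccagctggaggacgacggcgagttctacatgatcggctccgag

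None of the 28-base windows of the SMARCB1 coding sequence occurred exactly at another place in the genome, so its footprints can be assigned to it. The counts are per gene and do not separate footprints of the inducible copy, whose sequence was not used here, from those of the gene on chromosome 22.

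The other subunits come in families whose mRNAs resemble each other, which decides whether a footprint can be given to 1 paralog. The closest 60-base stretches within a coding exon of the ATPase pair and of the scaffold pair are given from GRCh38, written 5′ to 3′ on the coding strand, with differing bases in capitals. The ATPase stretches lie at chr19:10991264-10991323 (SMARCA4, plus strand) and chr9:2056786-2056845 (SMARCA2, plus strand) and differ at 6 bases. Their longest identical run was 26 bases, shorter than the 28-base windows that stand for a footprint.
SMARCA4: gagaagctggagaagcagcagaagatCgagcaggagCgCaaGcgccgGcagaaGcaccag
SMARCA2: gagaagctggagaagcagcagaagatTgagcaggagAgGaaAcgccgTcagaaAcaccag

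The scaffold stretches lie at chr3:47622222-47622281 (SMARCC1, minus strand) and chr12:56168075-56168134 (SMARCC2, minus strand) and differ at 9 bases.
SMARCC1: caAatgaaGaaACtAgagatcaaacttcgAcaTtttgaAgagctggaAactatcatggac
SMARCC2: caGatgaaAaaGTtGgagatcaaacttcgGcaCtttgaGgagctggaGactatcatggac

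Every 28-base window of SMARCC1, SMARCC2, SMARCD1, SMARCD2, SMARCD3 and ACTL6A occurred at no other locus. Windows found elsewhere made up 0.62% of SMARCA4 and 2.36% of SMARCA2. SMARCE1 was the exception, with 41.4% of its windows repeated, 19.8% of all its windows occurring in the processed pseudogene SMARCE1P5 and 9.37% in SMARCE1P3. Reads with more than 1 alignment were not counted on genes, so the SMARCE1 level may be understated, and its levels are given below on both scales.

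SMARCB1 footprints were absent without induction and abundant with it. SMARCB1 Dox replicate 1 had 2553 counts on the gene and replicate 2 had 1750, equal to 224 and 291 CPM (258 ± 47.8 CPM, SD, n = 2). It had 0 counts in each of the other 6 libraries, so the induced group does not overlap any other. With the limit of 3 counts that a count of 0 allows over the pooled SMARCB1 DMSO libraries, SMARCB1 was at least 1616-fold higher in SMARCB1 Dox, and leaving out SMARCB1 DMSO replicate 2 or 1 lowers this bound to 488-fold or 1128-fold. The same bound was 1101-fold against GFP Dox, which shared the drug, and 2142-fold against GFP DMSO. These bounds cover counting error only.

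The increase in SMARCB1 passed the test against SMARCB1 DMSO (adjusted p = 1.1e-06, edgeR quasi-likelihood test, Benjamini-Hochberg adjustment) and against GFP Dox (adjusted p = 1.3e-07). SMARCB1 was induced by design and passed the filter on low counts only through SMARCB1 Dox, so these tests check the induction and add no separate support. The size of p depends on the method, with an adjusted p of 4.6e-16 by DESeq2 against SMARCB1 DMSO. A gene was called when its adjusted p was below 0.05 and its change above 2-fold. In SMARCB1 Dox against SMARCB1 DMSO this held for 2 of 11097 genes, 0.018%, and SMARCB1 was the only called subunit among the 9 tested. That background depends on the method, with 26 genes higher and 8 lower by DESeq2 and 38 and 8 in edgeR without the filter on low counts. Per kilobase the induced level was 152 and 198 CPM, above 92.2% of the genes tested in these libraries.

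**Figure D1:**
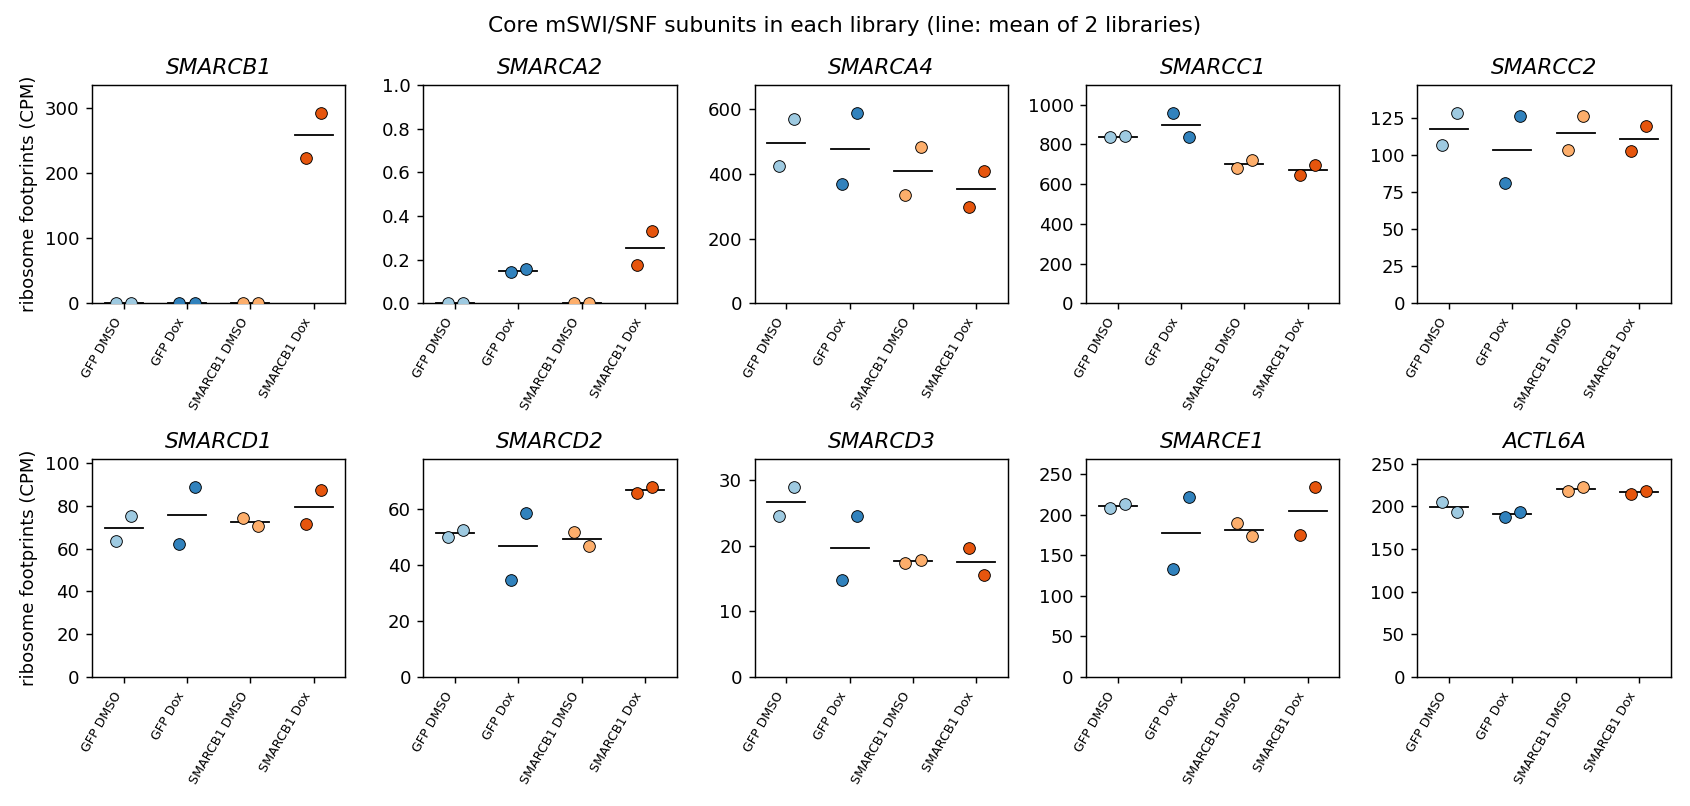
Footprint level of each of the 10 core subunits in CPM, 1 point a library, with a line at the mean of the 2 libraries of a group; each panel has its own linear axis from 0. SMARCB1 is at 0 outside SMARCB1 Dox, SMARCA2 stays at or below 0.333 CPM, and the other 8 subunits are present in all 8 libraries.

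The ATPase of these cells was SMARCA4 (chr19:10960932-11079426, plus strand, ENSG00000127616), which carries out the remodeling reaction. Its level was 336 and 483 CPM in SMARCB1 DMSO, 299 and 409 CPM in SMARCB1 Dox, 424 and 569 CPM in GFP DMSO and 369 and 587 CPM in GFP Dox. Dox and DMSO overlap in both lines. Between libraries of the same number, Dox lay below DMSO for both numbers in the SMARCB1 line. In the GFP line it lay below for replicate 1 and above for replicate 2. In each group replicate 2 was the higher of the 2. SMARCA4 differed by -0.33 on the log2 scale after SMARCB1 induction (SE 0.29, 95% interval -0.95 to 0.28, adjusted p = 1, edgeR).

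SMARCA2 (chr9:1980290-2193624, plus strand, ENSG00000080503), the alternative ATPase, is known to be silenced in many rhabdoid tumors. It had 2 counts in each SMARCB1 Dox library, 1 count in each GFP Dox library and 0 counts in all 4 DMSO libraries. In the 4 DMSO libraries, with the limit of 3 counts over all of them, SMARCA4 was at least 6921-fold higher than SMARCA2 per kilobase. In the 4 Dox libraries the 6 counts set it 1947 times higher (95% exact binomial interval 894 to 5307). SMARCA2 then made up 0.0712% of the 2 ATPases' level in SMARCB1 Dox (0.0194% to 0.182%) and 0.033% in GFP Dox (0.0040% to 0.119%), intervals that overlap. All SMARCA2 counts came from Dox libraries of either line. The DMSO bound lies above the Dox interval, but both cover counting error only and rest on 0 to 2 counts a library. SMARCA2 did not pass the filter on low counts, so the main tests over all genes left its change with Dox untested.

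SMARCC1 (chr3:47585269-47782106, minus strand, ENSG00000173473) had the highest level of the 10 genes, both in CPM and per kilobase. It reached 679 and 720 CPM in SMARCB1 DMSO and 647 and 698 CPM in SMARCB1 Dox. In GFP DMSO it was at 837 and 843 CPM, and in GFP Dox at 956 and 840 CPM. All 4 libraries of the SMARCB1 line therefore lay below all 4 of the GFP line, while Dox and DMSO overlapped in the SMARCB1 line. SMARCC2 (chr12:56162359-56189567, minus strand, ENSG00000139613), its partner in the scaffold, ran from 81.2 to 128 CPM with a median of 113 CPM, and its groups overlap.

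The SMARCD subunits, of which 1 enters each complex, bridge the scaffold to transcription factors and other subunits. SMARCD1 (chr12:50085200-50100707, plus strand, ENSG00000066117) ran from 62.3 to 88.7 CPM and SMARCD3 (chr7:151238764-151277896, minus strand, ENSG00000082014) from 14.7 to 28.9 CPM. SMARCD2 (chr17:63832081-63843065, minus strand, ENSG00000108604) was at 51.8 and 46.8 CPM in SMARCB1 DMSO and at 65.4 and 67.6 CPM in SMARCB1 Dox. Both induced libraries lay above both uninduced ones, a separation that 35.1% of all genes tested showed in either direction. In GFP Dox, SMARCD2 was at 34.6 CPM in replicate 1 and 58.5 CPM in replicate 2, on either side of the 49.99 and 52.29 CPM of GFP DMSO.

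SMARCE1 (chr17:40624962-40648654, minus strand, ENSG00000073584), a DNA-binding HMG-box subunit, was at 190 and 174 CPM in SMARCB1 DMSO, 174 and 234 CPM in SMARCB1 Dox, 208 and 213 CPM in GFP DMSO and 132 and 221 CPM in GFP Dox. The lowest value was in GFP Dox replicate 1. ACTL6A (chr3:179562886-179588407, plus strand, ENSG00000136518), the actin-related subunit that pairs with actin on the ATPase, was the steadiest of the 10, between 188 and 222 CPM with a coefficient of variation of 6.56% over 8 libraries. Its 4 libraries of the SMARCB1 line, from 214 to 222 CPM, all lay above the 4 of the GFP line, from 188 to 205 CPM. This order depends on the scaling, since CPM uses library totals alone. The factors that the tests add (TMM) were 0.872 for GFP Dox replicate 1 and 1.048 and 1.051 for the SMARCB1 Dox libraries. With them the lines overlap for ACTL6A.

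Whether the rest of the core moved with SMARCB1 was asked in SMARCB1 Dox against SMARCB1 DMSO. The other 8 tested subunits had log2 fold changes from -0.33 (SMARCA4) to 0.33 (SMARCD2), with a median of -0.12 beside -0.02 over all genes tested. None was called or had an unadjusted p below 0.05 with edgeR or DESeq2, and each adjusted p was 1. All 8 intervals lay within a 2-fold change in either direction, from -0.95 (SMARCA4) to 0.84 (SMARCD2). These bounds depend on the libraries and the scaling. The intervals of 7 of the 8 stayed within 2-fold without SMARCB1 DMSO replicate 1 (lowest bound -1.28) or with library size as the only scaling (highest bound 1.02), and those of 6 without SMARCB1 Dox replicate 1 or replicate 2 (lowest bounds -1.15 and -1.40).

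SMARCD2 was the only one of these 8 whose SMARCB1 Dox libraries did not overlap SMARCB1 DMSO in CPM. That order alone is common, since 35.1% of all genes tested showed it in either direction. Its log2 fold change was 0.33 (SE 0.24, 95% interval -0.19 to 0.84, unadjusted p = 0.20, edgeR over all genes).

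GFP induction left SMARCB1 at 0 counts and called none of the other 8 subunits. Their log2 fold changes in GFP Dox against GFP DMSO ran from -0.38 (SMARCD3) to 0.20 (SMARCC1), with 0 unadjusted p-values below 0.05 by edgeR and by DESeq2. Over all genes the share called was 0% in this comparison. Without GFP Dox replicate 1 the 8 ran from -0.17 (SMARCD3) to 0.31 (SMARCD1), and without GFP Dox replicate 2 from -0.63 (SMARCD3) to 0.41 (SMARCC1), with none called. SMARCD3 was the only subunit whose GFP Dox libraries did not overlap GFP DMSO, at 14.7 and 24.42 CPM in Dox against 24.50 and 28.9 CPM in DMSO, an order shown by 25.4% of all genes in either direction.

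The difference between the 2 lines' Dox effects was tested as an interaction. With edgeR 0% of genes were called, and the 8 subunits ran from -0.37 (SMARCC1) to 0.40 (SMARCD2) on the log2 scale, with 0 unadjusted p-values below 0.05. Only 4 of the 8 intervals lay within a 2-fold change, so for the other 4 a 2-fold difference between the effects lay within the interval. Without GFP Dox replicate 1 the 8 ran from -0.53 (SMARCA4) to 0.18 (SMARCD2), with 6 intervals within 2-fold, and without GFP Dox replicate 2 from -0.58 (SMARCC1) to 0.66 (SMARCD2), with 4. For genes at 0 counts in 3 of 4 groups, SMARCB1 among them, the edgeR value was set aside by rule and does not enter the 0%. This rule was not applied to DESeq2, which called SMARCB1, so the 2 tools cannot be compared on it. The 2 Dox comparisons share no libraries.

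**Figure D2:**
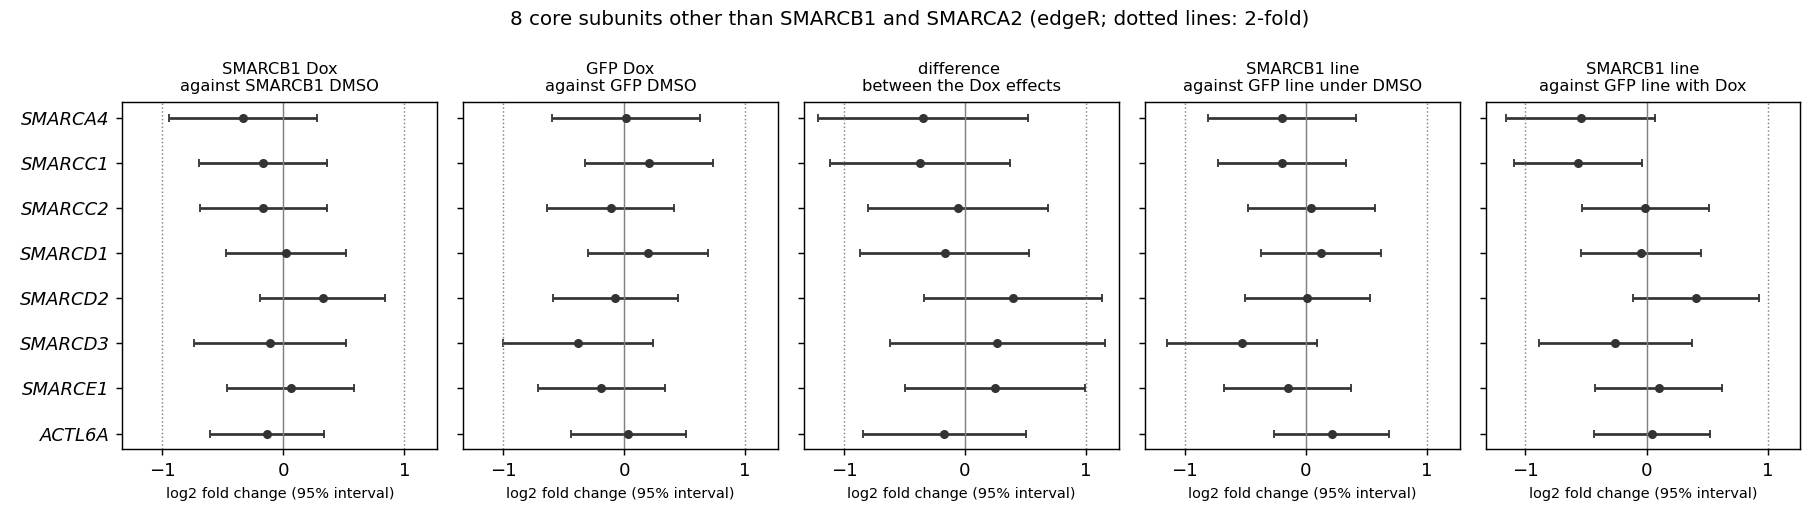
Log2 fold changes (points) and 95% intervals (bars) of the 8 core subunits other than SMARCB1 and SMARCA2 in 5 comparisons, from edgeR over all genes; dotted lines mark a 2-fold change. In SMARCB1 Dox against SMARCB1 DMSO all 8 intervals lie inside the dotted lines and include 0, and only SMARCC1 with Dox has an interval to 1 side of 0, before adjustment over all genes.

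Between the lines, in comparisons that use the same libraries as the Dox comparisons, many genes differed and the 8 core subunits other than SMARCB1 did not pass the test. Under DMSO 4.97% of genes were called and 0 of the 8 subunits, with 0 unadjusted p-values below 0.05 by edgeR and by DESeq2. The lowest p belonged to SMARCD3, at 17.4 and 17.8 CPM in SMARCB1 DMSO against 24.5 and 28.9 CPM in GFP DMSO. Its log2 fold change was -0.53 (SE 0.29, 95% interval -1.15 to 0.09, adjusted p = 0.48, edgeR).

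With Dox 6.08% of genes were called, and SMARCB1 was the only subunit among them. SMARCC1 differed by -0.56 on the log2 scale (SE 0.25, 95% interval -1.09 to -0.04, unadjusted p = 0.038, adjusted p = 0.23, edgeR). Without GFP Dox replicate 1 this became -0.32 (adjusted p = 0.59), and without GFP Dox replicate 2 it became -0.77 (adjusted p = 0.039), below the 2-fold threshold either way. SMARCA4 differed by -0.54 (SE 0.29, adjusted p = 0.33, edgeR). Without GFP Dox replicate 1 its difference was -0.73, larger than that of SMARCC1, and without GFP Dox replicate 2 it was -0.33. Over both treatments together, SMARCC1 and ACTL6A were the 2 of 9 subunits whose 4 libraries of one line did not overlap the 4 of the other in CPM. For ACTL6A this did not hold with the scaling used in the tests. In CPM, 16.9% of all genes tested were separated in this way, in either direction.

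Levels per kilobase put the core in an order that held in nearly every library. Over the 8 libraries the means were 235 CPM per kilobase for SMARCC1, 157 for ACTL6A, 121 for SMARCE1, 77.7 for SMARCA4, 46.4 for SMARCD1, 29.98 for SMARCC2, 28.9 for SMARCD2, 13.4 for SMARCD3 and 0.019 for SMARCA2. Each neighbour in this order was higher in 8 of 8 libraries, except SMARCC2 over SMARCD2, in 5 of 8, which do not differ beyond their spread (SD 4.38 and 5.73). SMARCC1 stood above 94.4% of the genes tested by this measure and SMARCD3 above 43.9%. On the uniquely alignable bases of SMARCE1 alone (938 of 1601), its mean became 206 CPM per kilobase, above ACTL6A in 7 and above SMARCC1 in 1 of 8 libraries.

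Summed over paralogs, the positions of the core had unequal footprint levels. The SMARCC pair, which fills 2 places in a complex, reached 223 to 310 CPM per kilobase, ACTL6A 142 to 169, SMARCE1 82.7 to 146, the 3 SMARCD genes together 67.4 to 103 and the ATPases 53.4 to 105. The summed SMARCC level was a median of 2.12 times that of SMARCE1 over the 8 libraries, on all annotated coding bases. On its uniquely alignable bases alone SMARCE1 reached 141 to 249 CPM per kilobase, above ACTL6A in 7 of 8 libraries. The ratio of 2.12 and the place of SMARCE1 among the positions therefore depend on the length used. These are levels of footprints, and no protein amounts were measured in them.

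**Figure D3:**
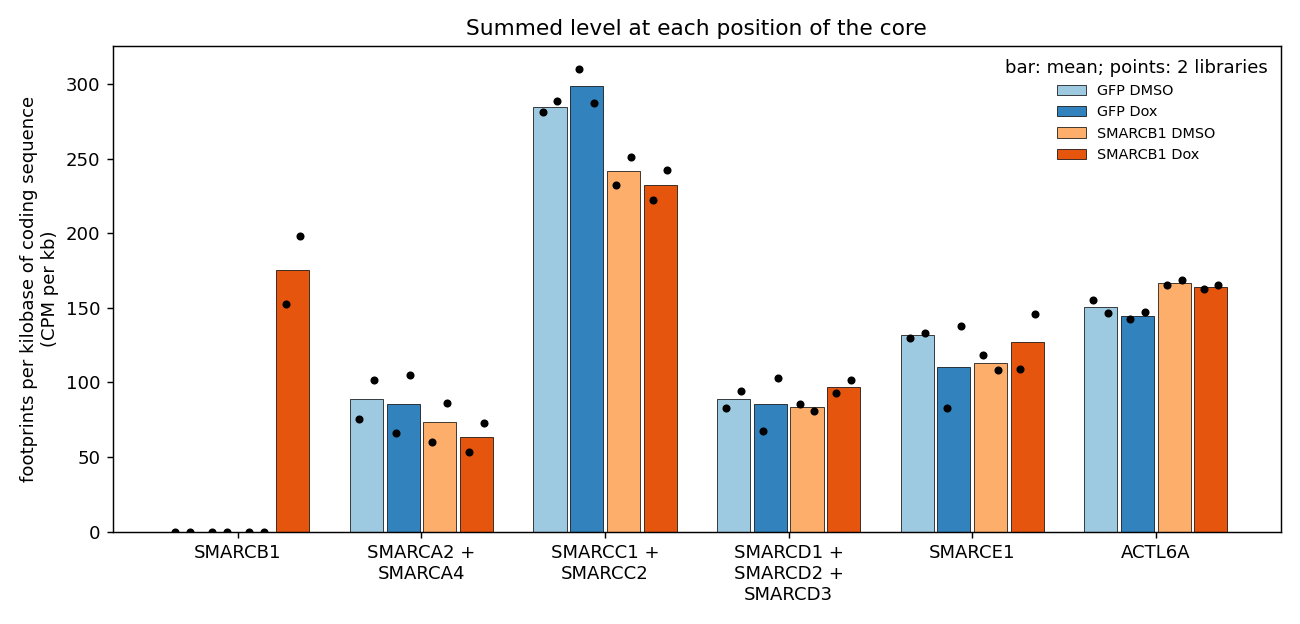
Footprint level in CPM per kilobase of all annotated coding sequence, summed over the paralogs at each position of the core. Bars are means of 2 libraries and points the libraries. The order of positions, that of SMARCE1 above all, depends on the coding length used. In SMARCB1 Dox the SMARCB1 bar (152 and 198) stands near that of ACTL6A (163 and 165), below the SMARCC pair (223 and 243) and above the ATPases (53.4 and 73.1).

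The induced SMARCB1 level was set against the other positions in the 2 SMARCB1 Dox libraries. SMARCB1 was 2.85 and 2.72 times SMARCA4 per kilobase (2.79 ± 0.10, SD, n = 2). It was 1.64 and 1.96 times the 3 SMARCD genes together, 0.94 and 1.2 times ACTL6A and 0.68 and 0.82 times the SMARCC pair. Against SMARCE1 it was 1.40 and 1.36 times as high on all annotated coding bases, but 0.82 and 0.80 times on uniquely alignable bases, so whether SMARCB1 exceeded SMARCE1 depends on the length used. On the longest coding transcript in place of all annotated coding bases, the ratio to SMARCA4 was 3.19 and 3.04 and that to ACTL6A 1.14 and 1.46. The ratio to the SMARCC pair was then 0.85 and 1.02, so whether SMARCB1 lay below that pair also depends on the length used. There is no parental tissue with SMARCB1 among these samples, and nothing was compared with an original level.

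**Figure D4:**
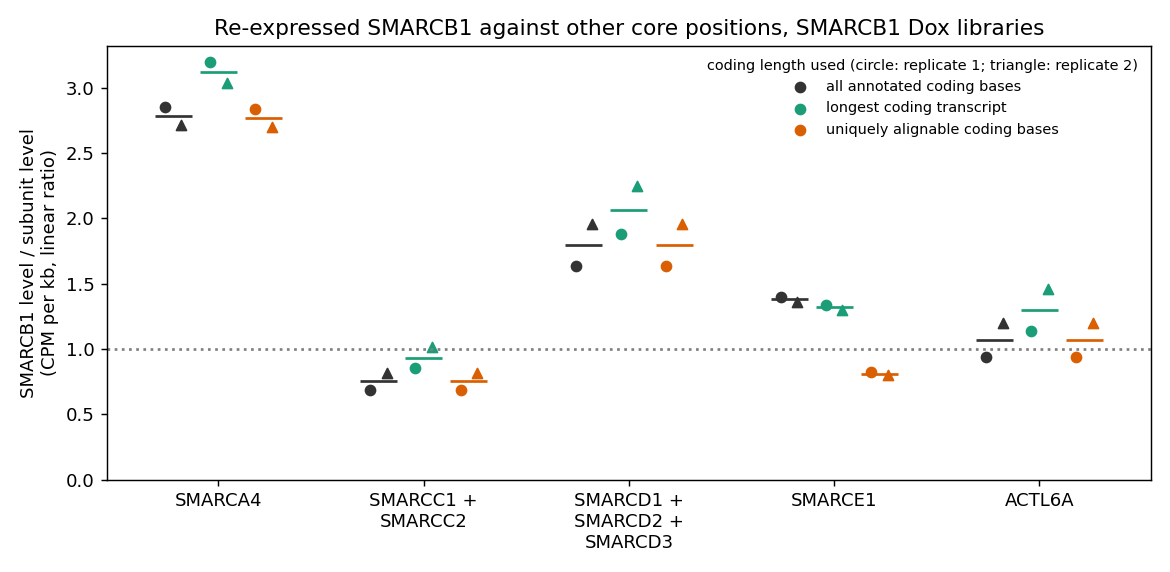
Level of re-expressed SMARCB1 divided by that of other core positions (linear ratio of CPM per kilobase) in the 2 SMARCB1 Dox libraries, for 3 definitions of coding length; circles are replicate 1, triangles replicate 2 and lines the mean. SMARCB1 lies above SMARCA4 and the SMARCD genes under all 3, and above SMARCE1 under 2 of them (1.38, 1.32 and 0.81 on average).

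Paralog shares were compared between the lines, since each complex takes a choice of paralog. SMARCC2 made up 12.0% and 13.5% of the SMARCC pair in SMARCB1 DMSO, 12.4% and 13.2% in SMARCB1 Dox, 10.2% and 11.9% in GFP DMSO and 7.01% and 11.8% in GFP Dox. The 4 libraries of the SMARCB1 line (12.8% ± 0.71, SD, n = 4) lay above the 4 of the GFP line (10.2% ± 2.28, n = 4), by as little as 11.96% against 11.91%. The log2 ratio differed by 0.39 (two-sided exact permutation test over libraries, p = 0.029, the smallest that 4 against 4 allow, and adjusted p = 0.076 over 4 shares). Without GFP Dox replicate 1 the difference was 0.20. The permutation test of the shares ignores treatment, so the Dox and DMSO libraries of a line enter as a single set.

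Within the SMARCD family, SMARCD1 held 48.0% to 57.9% of the level per kilobase, SMARCD2 27.8% to 38.04% and SMARCD3 10.1% to 20.1%. SMARCD3 held 12.9% ± 1.96 in the SMARCB1 line, against 17.4% ± 2.83 for GFP (SD, n = 4 each). Only 1 pair of libraries crossed, 14.4% in SMARCB1 DMSO replicate 2 and in GFP Dox replicate 1 (14.44% and 14.36%). The exact permutation p was 0.057 for SMARCD3 (log2 ratio -0.50) and 0.057 for SMARCD2 (log2 ratio 0.28), and the adjusted p was 0.076 for both. The SMARCD2 share averaged 31.9% in SMARCB1 DMSO and 31.3% in GFP DMSO, but 37.1% in SMARCB1 Dox and 29.2% in GFP Dox. The SMARCD3 share averaged 13.9% and 19.8% under DMSO and 11.9% and 14.96% with Dox, in the same order of lines. SMARCD1 had a log2 ratio of 0.01 (exact permutation p = 0.80). No share passed the adjusted test. With 2 libraries against 2, Dox and DMSO could not reach p below 0.33 and were not tested, and the SMARCA2 share, at 0 in 4 libraries, had no log2 ratio.

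**Figure D5:**
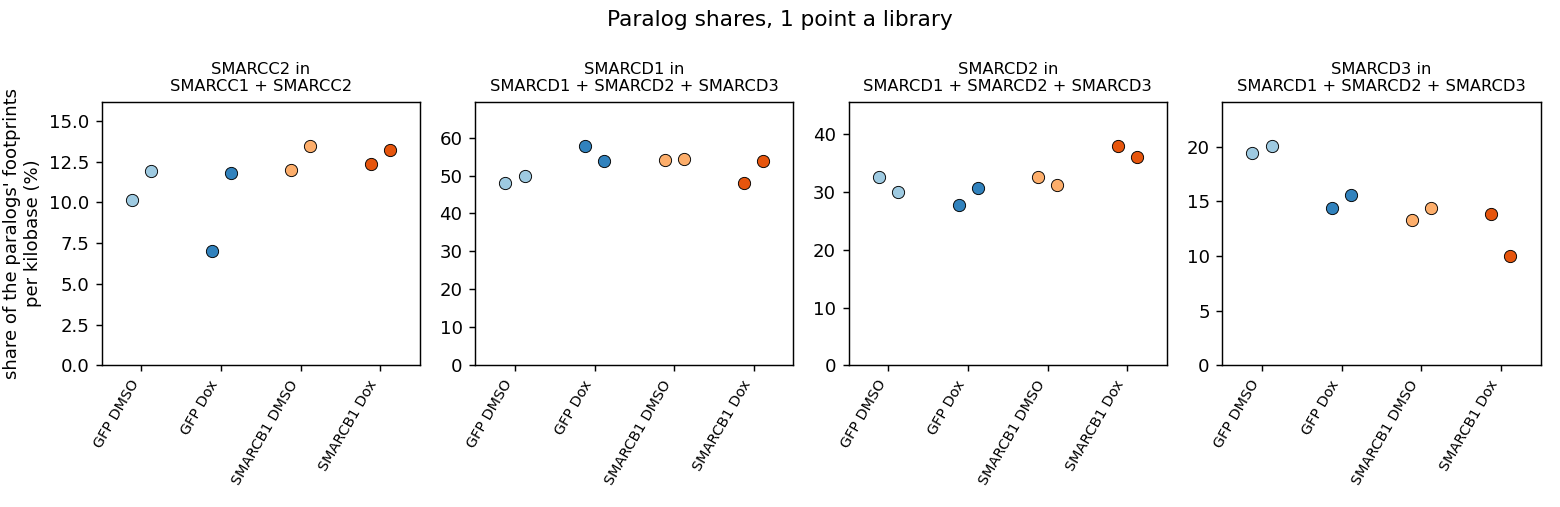
Share of each paralog in its family's footprints per kilobase, in percent, 1 point a library; each panel has its own axis from 0. SMARCD2 is highest in the 2 SMARCB1 Dox libraries (38.04% and 36.1%), SMARCD3 is highest in GFP DMSO (19.4% and 20.1%), and the lowest SMARCC2 share (7.01%) is GFP Dox replicate 1.

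The 19 other mSWI/SNF subunits, which define the BAF, PBAF and ncBAF forms or attach to the core, were read for comparison, and 17 of them were tested. None was called in any of the 5 comparisons with edgeR, with 0 unadjusted p-values below 0.05 in either Dox comparison and 1 in each of the other 3. The lowest p in SMARCB1 Dox against SMARCB1 DMSO was that of ARID1A, a BAF-specific DNA-binding subunit, at 344 and 339 CPM against 495 and 402 CPM (log2 fold change -0.50, SE 0.27, unadjusted p = 0.088, adjusted p = 1).

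PHF10, a PBAF subunit, had the lowest p in the other Dox comparisons and between lines with Dox. It was at 171 and 152 CPM in SMARCB1 Dox, 252 and 195 CPM in SMARCB1 DMSO, 369 and 205 CPM in GFP Dox and 227 and 188 CPM in GFP DMSO. The highest value was in GFP Dox replicate 1. Its log2 fold change was 0.60 in GFP Dox against GFP DMSO (adjusted p = 1) and -1.17 as a difference between the Dox effects (unadjusted p = 0.019, adjusted p = 0.98). Between lines with Dox it was -1.003 (SE 0.31, adjusted p = 0.078, edgeR), which DESeq2 called (adjusted p = 0.030). Without GFP Dox replicate 1 it was -0.34 (adjusted p = 0.59), and without GFP Dox replicate 2 it was -1.45 (adjusted p = 0.0010). Leaving out that second library also put PHF10 past the threshold in GFP Dox against GFP DMSO (1.05, adjusted p = 0.048) and for the difference between the Dox effects (-1.62, adjusted p = 0.036), with GFP Dox replicate 1 then standing alone for its group. Under DMSO the lowest p between lines was that of BCL7C, higher in the SMARCB1 line by 0.66 on the log2 scale (SE 0.30, unadjusted p = 0.044, adjusted p = 0.33).

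The genes whose log2(CPM + 1) ran most like that of SMARCB1 over the 8 libraries were FLT1, AXL and HCLS1 (Pearson r = 0.998, 0.990 and 0.987, a description over 8 libraries, of which only 2 hold SMARCB1). HCLS1 had 106 and 92 counts in SMARCB1 Dox and 0 to 8 counts elsewhere. AXL, a receptor tyrosine kinase, was at 99.5 and 96.4 CPM in SMARCB1 Dox and 32.6 to 40.7 CPM elsewhere, while FLT1, the receptor of VEGF, had only 15 and 9 counts in SMARCB1 Dox and at most 1 elsewhere. FLT1 and HCLS1 passed the filter on low counts only through SMARCB1 Dox. A ranking against a gene at 0 outside that group favours such genes, so their likeness is no separate support. The genes most like SMARCA4 were MRM3, SPATA2L and DDB2 (r = 0.982, 0.980 and 0.978 over 8 libraries). In each of the 4 groups, the library with more SMARCA4, replicate 2, also had more of each of these 3. They were picked for their likeness over the same libraries, so this order follows from the choice and is no separate evidence.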

How the data were processed

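Ribosome footprints of G401 cells (RiboLace and LaceSeq kits) were aligned with STAR and counted with HTSeq in its strict intersection mode on coding sequences of hg38 and GENCODE annotation 42, per the labels and the study's methods (tool versions, strand option and adapter or rRNA handling are not given in the sources used here). The authors deposited raw counts per gene, 1 table a library. HTSeq's summary lines, which hold no gene, were left out of library sizes. Reads with a unique alignment that lay on no coding sequence were 36.6% to 45.9%. RNA-seq was not analysed here.

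Symbols, positions and coding lengths come from GENCODE 44 (GRCh38), a later release than the one counted on; coding lengths were not compared between releases. CPM used totals on genes. All genes were tested with edgeR 4.0.16 (filterByExpr by group, TMM, quasi-likelihood test over 8 libraries, R 4.3.3) and adjusted by Benjamini-Hochberg. DESeq2 1.42.0 was an alternative. The 95% intervals use the quasi-likelihood standard error. Scripts were tested on simulated data. Paralog shares used exact permutation tests (SciPy 1.17.1). Coding windows of 28 bases were searched on both strands of the genome and in other genes' coding sequences.

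All 10 members were named, as were other subunits with the lowest p in a comparison and the 3 genes most like SMARCB1 and SMARCA4 each. The members, lists and rules were chosen with earlier results of these data known. Without molecular identifiers, limits and intervals of counts cover counting error only.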

Additional observations from a re-analysis of the deposited data

Results flagged for a closer look

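SMARCB1 was flagged because the effect of Dox differed between the lines. The interaction term of DESeq2 gave a fitted difference of 12.47 on the log2 scale for it. That fitted value depends on how the tool treats counts of 0 and is no bound. The counts behind it are 2553 and 1750 in SMARCB1 Dox and 0 in each of the 6 other libraries. Groups of 2 libraries were too small for a search for outlying samples.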

How the results depend on the processing

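The count of called core subunits stayed the same as reported in all 5 comparisons under RLE size factors, library size without further scaling, no filter beyond 1 count, robust quasi-likelihood, only the groups compared (which cannot be fitted for the difference between Dox effects) and the omission of each library. A filter of at least 10 counts in every library removes SMARCB1 itself, so 0 subunits were called in SMARCB1 Dox against SMARCB1 DMSO and 0 between lines with Dox. DESeq2 called 1, SMARCB1, for the difference between the Dox effects, where the edgeR value of SMARCB1 was set aside by rule. With the replicate number as a block (replicate block), 1 subunit was called in SMARCB1 Dox against SMARCB1 DMSO and 0 in GFP Dox against GFP DMSO, which changed no call of a core subunit (SMARCA4 between lines with Dox, adjusted p = 0.12). Calls over all genes in SMARCB1 Dox against SMARCB1 DMSO went from 2 to 9 higher and 4 lower under the block, to 26 and 8 with DESeq2, 38 and 8 without the filter, 5 and 0 with the groups compared alone and 16 and 6 without either GFP Dox library. They were 1 and 0 under the filter of 10 counts and without either SMARCB1 DMSO library or SMARCB1 Dox replicate 1. In GFP Dox against GFP DMSO they went from 0 to 13 higher and 1 lower without the filter and to 101 and 46 without GFP Dox replicate 2, and in the difference from 0 to 10 and 5, and to 38 and 67. Between lines they fell to 151 and 137 under DMSO and 196 and 181 with Dox under the stricter filter. Under DMSO they were 146 and 178 or 141 and 158 without GFP DMSO replicate 1 or 2, and with Dox 192 and 156 or 208 and 171 without SMARCB1 Dox replicate 1 or 2, and rose to 707 and 665 without GFP Dox replicate 2. Same-numbered libraries correlated at 0.05 to 0.28 in their deviations, but the labels name no shared batch, so the numbers were not taken as pairs.

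Where 1 library was left out, the lone library of its group was assumed to vary like the other groups. Small changes after SMARCB1 induction depended on single libraries, and none was called. The values without GFP Dox libraries stand beside the GFP results. Over the omissions of 1 library each, the log2 fold change ran from -0.619 to 0.0213 for SMARCA4, -0.351 to 0.0457 for SMARCC2, -0.119 to 0.16 for SMARCD1, -0.299 to 0.0429 for SMARCD3 and -0.16 to 0.255 for SMARCE1. The log2 ratio between lines ran from 0.202 to 0.483 for the SMARCC2 share and from -0.0731 to 0.117 for SMARCD1, which was -0.0134 on raw counts. With 3 libraries against 4 an exact permutation test cannot go below p = 0.057. On the longest coding transcript, SMARCB1 was 3.12 times SMARCA4, 0.933 times the SMARCC pair, 2.06 times the SMARCD genes, 1.32 times SMARCE1 and 1.3 times ACTL6A, and on uniquely alignable bases 0.808 times SMARCE1. Library size without further scaling moved the middle log2 value over all genes to 0.16 for the difference between Dox effects and 0.11 between lines with Dox. Depth limits SMARCA2, at 0 to 2 counts a library, and 2 libraries a group limit changes under 2-fold.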
